A study of Equus caballus with 25 samples.

Results

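The 3 genes of sugar and lactate handling followed through the oestrous cycle of the mare were SLC2A5, HK2 and SLC16A1. They were chosen by name, as all probes on the array whose RefSeq transcript belongs to these genes, which gave 5 probes of 3 genes out of 43603 probes and 620 genes that could be named. SLC2A5 had 2 probes (A_69_P000797 and A_69_P000796), HK2 had 1 (A_69_P000326) and SLC16A1 had 2 (A_69_P000681 and A_69_P076456).

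The samples were endometrial biopsies of 5 normally cycling Bavarian Warmblood mares, taken through the cervix on days 0, 3, 8, 12 and 16 of the cycle, with day 0 the day of ovulation. The labels place day 0 just after ovulation (estrus), day 3 in the early luteal phase, day 8 in the mid luteal phase, day 12 in the late luteal phase, and day 16 at the start of the next ovulatory phase (early estrus). Each mare gave 1 biopsy for each day, in different cycles or at least 9 days apart within a cycle, and each of the 25 RNA samples was labelled with Cy3 and hybridised to its own single-colour Agilent array. The labels name no treatment. A biopsy holds epithelium, stroma, vessels and blood cells together, so fewer cells of a type and less RNA per cell cannot be told apart in any value given here.

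SLC2A5 encodes GLUT5, a membrane carrier that lets fructose into cells and takes little glucose. HK2 encodes hexokinase 2, which phosphorylates glucose as it enters the cell and so commits it to glycolysis or to storage as glycogen. SLC16A1 encodes MCT1, which carries lactate, pyruvate and ketone bodies together with protons across the plasma membrane and needs the chaperone basigin (BSG) to reach it. In the uterus, sugars and lactate pass between blood, endometrium and the fluid in which an early conceptus lies.

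Each level is a log2 signal relative to the 75th percentile of all signals on the same array, so a value of 0 is that percentile and a difference of 1 is a doubling. All 5 probes were well above background on 25 of 25 arrays. Levels of different probes cannot be ranked against each other, since probes differ in how well they bind. Differences between days were tested with limma over 35770 tested probes. P-values were adjusted by Benjamini-Hochberg separately for each pair of days, and a change was called where the adjusted p was under 0.05. Over the 5 days, the F test called 5 of 5 probes, against 35.8% of all tested probes, and the 3 genes followed 3 different courses. HK2 was lowest on day 0 and highest on day 8. SLC2A5 was low on days 3 and 12 and higher on day 8 between them. By its brighter probe, SLC16A1 was lower on days 12 and 16 than on days 0 and 3.

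**Figure D1:**
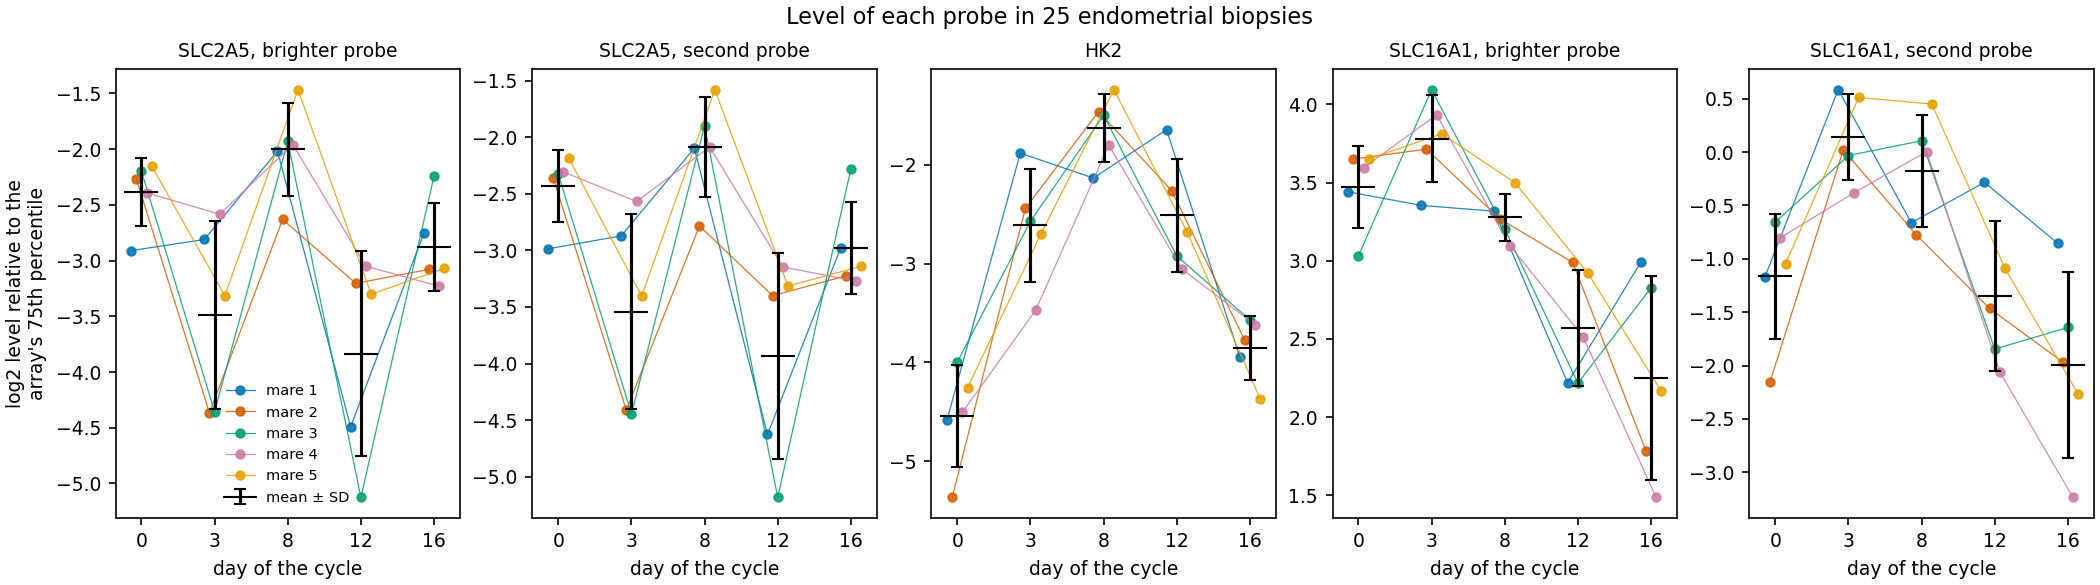
Level of each probe (log2 signal relative to the 75th percentile of the array, vertical axes differ) on days 0, 3, 8, 12 and 16 of the cycle; points are single biopsies joined by mare, black bars the mean ± SD of 5 mares. HK2 forms an arch with its top mean of −1.62 on day 8, and the 2 SLC2A5 probes trace nearly the same zigzag. Every day 3 value lies above every day 0 value for the second SLC16A1 probe and not for the brighter one.

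SLC2A5 was higher on day 8 than on day 3 and lower on day 12 than on days 8 and 0. The first of these changes was 2.80-fold and the fall on day 12 against day 8 was 3.56-fold. By the brighter probe, the 5 mares had levels of −2.91, −2.27, −2.20, −2.39 and −2.15 on day 0, given in the order of mares 1 to 5 here and below. On day 3 the levels of SLC2A5 were −2.81, −4.37, −4.36, −2.58 and −3.31. Mares 2 and 3 were far below the others on day 3, while mares 1 and 4 were still within the day 0 range.

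On day 8 SLC2A5 stood at −2.02, −2.63, −1.93, −1.96 and −1.47, and all 5 mares were higher than on their own day 3. On day 12 the levels were −4.49, −3.20, −5.13, −3.05 and −3.30, all below the lowest of day 8 and of day 0. On day 16 they were −2.76, −3.08, −2.24, −3.23 and −3.07, which overlapped with days 0, 3, 8 and 12. The 2 lowest values of day 12 were those of mares 1 and 3, whereas the 2 lowest of day 3 were those of mares 2 and 3, so 1 mare was among the lowest on both days.

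Mean levels of SLC2A5 were −2.38 ± 0.31, −3.49 ± 0.84, −2.0 ± 0.42, −3.83 ± 0.92 and −2.87 ± 0.39 on days 0, 3, 8, 12 and 16 (SD, n = 5 each), and the F test over the days gave an adjusted p of 0.00272 (limma). The spread between mares was wide on the 2 low days: its SD on day 12 was larger than that of 95.4% of tested probes, and on day 3 larger than that of 82.2%. From low to high the day means ran 12, 3, 16, 0 and 8, and no neighbours in this order differed past the threshold: the log2 changes were −0.35 on day 12 against day 3, 0.61 on day 16 against day 3, −0.49 on day 16 against day 0 and 0.38 on day 8 against day 0.

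Day 8 against day 3 gave a log2 change of 1.49 ± 0.38 for SLC2A5 (SE, limma adjusted p = 0.0102), higher in 5 of 5 mares, in a comparison that called 13.8% of all tested probes. This call was lost without mare 5 (adjusted p = 0.0611). Day 12 against day 8 gave −1.83 ± 0.38 (limma adjusted p = 0.0236), lower in 5 of 5 mares with no overlap between the days, in a comparison that called 1.1% of all tested probes. That call was close to the threshold. Leaving out mare 1, 2, 3 or 5, the day 8 biopsy of mare 3, 4 or 5, or the day 12 biopsy of mare 1 or 3 ended the call. The adjusted p-values were then between 0.0589 and 0.280. Day 12 against day 0 gave −1.45 ± 0.38 (limma adjusted p = 0.00944), lower in 5 of 5 mares, where 17.9% of all tested probes were called. The adjusted p was 0.0640 without mare 3 and 0.0547 with scan day as a block. Day 3 against day 0 gave −1.10 ± 0.38 (limma adjusted p = 0.0587) and was lower in 4 of 5 mares. It passed when mare 4 (0.0364), only its day 3 biopsy (0.0247) or the day 12 biopsy of mare 3 (0.0371) was left out. It also passed with 2 other settings (0.0206 with normexp after marked local backgrounds were replaced, 0.0472 among probes well above background on all arrays). None of the 3 SLC2A5 calls held when mare and slide were both in the model (adjusted p = 0.0787, 0.105 and 0.206 for day 8 against 3, day 12 against 8 and day 12 against 0), while with mare alone in the model all 3 held.

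The second SLC2A5 probe gave the same picture. Its correlation with the brighter probe was r = 0.997 over the 25 arrays, its 3 called pairs of days were the same, and the change of the ratio between the probes lay between −0.06 and 0.00 in all 10 pairs of days. At least 3 called pairs were reached by 22.1% of tested probes. The 2 probes share each biopsy and each array, so they repeat the measurement of the transcript and not the sampling of the mares.

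HK2 rose after ovulation and fell before the next, with the largest change of the 3 genes. It was 3.80-fold higher on day 3 than on day 0 and 7.54-fold higher on day 8 than on day 0, then 2.54-fold lower on day 16 than on day 12. On day 0 the mares had HK2 levels of −4.58, −5.37, −3.99, −4.50 and −4.25. On day 3 the levels were −1.88, −2.44, −2.57, −3.47 and −2.70, every one above the highest of day 0.

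On day 8 HK2 stood at −2.13, −1.46, −1.50, −1.80 and −1.24, and 4 of 5 mares were higher than on day 3, with mare 1 the exception. On day 12 the levels were −1.64, −2.26, −2.92, −3.05 and −2.68. Mare 1 thus had its highest HK2 level on day 12, and the other mares on day 8. On day 16 the levels were −3.94, −3.78, −3.57, −3.62 and −4.37, below all values of days 3, 8 and 12 and overlapping with day 0.

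Mean HK2 levels were −4.54 ± 0.52, −2.61 ± 0.57, −1.62 ± 0.35, −2.51 ± 0.57 and −3.85 ± 0.32 on days 0, 3, 8, 12 and 16 (SD, n = 5 each). The F test over the days gave an adjusted p of 9.09e-07 (limma), and 0.732% of tested probes had a smaller one. Of the 10 pairs of days 7 were called, a number that 1.0% of tested probes reached or passed. From low to high the day means ran 0, 16, 3, 12 and 8, and the step between days 16 and 3 was the only one between neighbours in this order that passed the threshold.

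HK2 changed by 1.93 ± 0.30 on the log2 scale on day 3 against day 0 (SE, limma adjusted p = 0.000427), higher in 5 of 5 mares, where 12.7% of all tested probes were called. Day 8 against day 0 gave 2.91 ± 0.30 (limma adjusted p = 3.34e-07), where 21.9% were called, and day 12 against day 0 gave 2.03 ± 0.30 (limma adjusted p = 4.25e-05), both higher in 5 of 5 mares with no overlap. The size of these 3 changes depended on how dim signals were processed. On day 0 the HK2 signals were only 65.2, 16.9, 56.2, 38.2 and 78.5 units. The normexp setting changed the background correction and also added an offset of 50 units, which shrinks fold changes of dim probes. With normexp, after marked local backgrounds were replaced, the 3 changes were 1.08, 1.93 and 1.16 and all 3 were called. The parts of offset and background correction were not tested separately. The local backgrounds as deposited reach 772899 on the day 8 array of mare 2 and at most 251 on the others. With normexp on these, the change on day 3 against day 0 was 1.07 and not called (limma adjusted p = 0.0803). After marked local backgrounds were replaced, 7 of 7 HK2 calls held. The fall was seen against each luteal day, in 5 of 5 mares each time. HK2 changed by −1.24 ± 0.30 on day 16 against day 3 (limma adjusted p = 0.00635), where 13.8% of all tested probes were called. It changed by −2.23 ± 0.30 on day 16 against day 8 (1.97e-05), where 15% were called, and by −1.34 ± 0.30 on day 16 against day 12 (0.00528), where 8.07% were called.

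The step from day 3 to day 8 was less secure. HK2 changed by 0.99 ± 0.30 on day 8 against day 3 (SE, limma adjusted p = 0.0277). The call was lost without mare 2, 3, 4 or 5, without the day 3 array of mare 4 or 5, and without the day 8 array of mare 2, 3 or 5, with adjusted p-values between 0.0552 and 0.132, and with slide as a block (0.0599). The call on day 16 against day 3 was lost without mare 5 (adjusted p = 0.0522) and with normexp on the local backgrounds as deposited (0.0555). On day 12 against day 8 the change of HK2 was −0.89 ± 0.30 (limma adjusted p = 0.140), lower in 4 of 5 mares. On day 16 against day 0 it was 0.68 ± 0.30 (limma adjusted p = 0.20), higher in 4 of 5 mares; neither was called. With mare and slide both in the model, 2 of the 7 HK2 calls held, day 8 against 0 (adjusted p = 0.0120) and day 16 against 8.

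**Figure D2:**
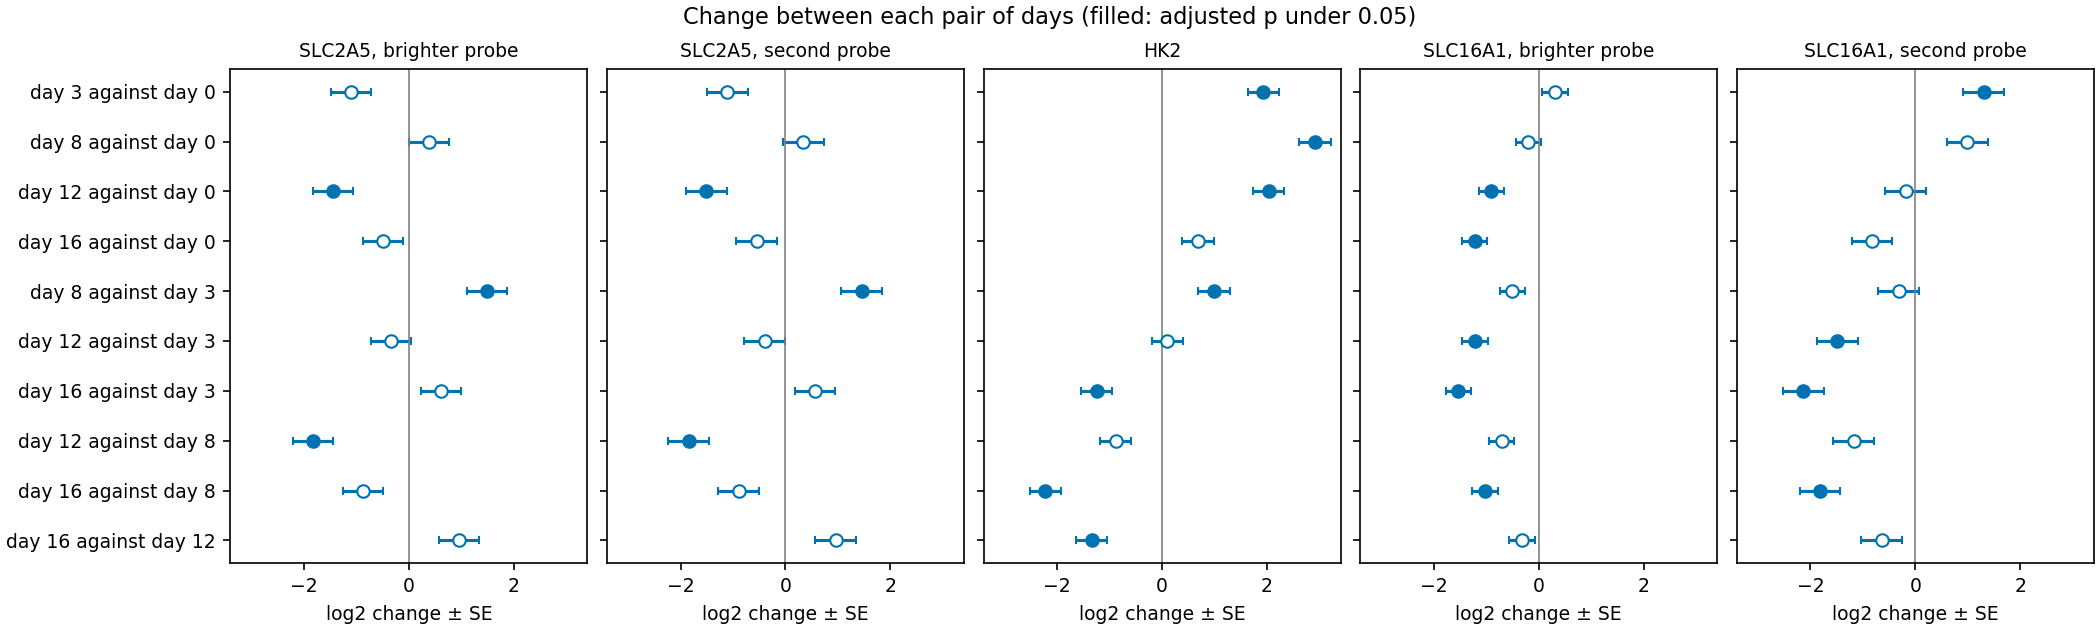
Log2 change of each probe between each of the 10 pairs of days, later minus earlier day, ± SE of the limma model over 25 arrays; filled points have an adjusted p under 0.05. HK2 has 7 filled points, from 2.91 on day 8 against day 0 to −2.23 on day 16 against day 8; the 2 SLC2A5 probes have the same 3, and the 2 SLC16A1 probes have 5 and 4.

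SLC16A1 was lower late in the cycle than early, and its 2 probes did not give the same account of day 0. By the brighter probe, printed in 5 spots on each array, it was 2.31-fold lower on day 12 than on day 3 and 2.89-fold lower on day 16 than on day 3. The mares had levels of 3.44, 3.65, 3.03, 3.60 and 3.65 on day 0 and of 3.35, 3.71, 4.09, 3.93 and 3.81 on day 3, which overlapped. On day 8 SLC16A1 stood at 3.32, 3.27, 3.20, 3.1 and 3.50, within the range set by day 0.

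On day 12 the brighter SLC16A1 probe gave 2.22, 2.99, 2.22, 2.52 and 2.92, all below the lowest of days 0, 3 and 8. On day 16 it gave 2.99, 1.78, 2.83, 1.49 and 2.17. Mares 1 and 3 were higher on day 16 than on their day 12, and mares 2, 4 and 5 lower, so the 2 late days overlapped and day 16 was the most spread of the 5.

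Mean levels of the brighter SLC16A1 probe were 3.47 ± 0.26, 3.78 ± 0.28, 3.28 ± 0.15, 2.57 ± 0.37 and 2.25 ± 0.65 on days 0, 3, 8, 12 and 16 (SD, n = 5 each), with an adjusted p of 0.000135 over the days (limma F test). The 5 spots of this probe differed within an array by a median SD of 0.06, far less than the mares did. From low to high the day means ran 16, 12, 8, 0 and 3, and no neighbours differed past the threshold; the widest such gap was −0.71 ± 0.24 on day 12 against day 8 (limma adjusted p = 0.150), lower in 5 of 5 mares with no overlap, which passed when only these 2 days entered the model (0.0460).

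The brighter SLC16A1 probe was called in 5 pairs of days, all lower on the later day and lower in 5 of 5 mares. At least 5 called pairs were reached by 7.64% of tested probes. The changes were −0.90 ± 0.24 on day 12 against day 0 (SE, limma adjusted p = 0.0111), −1.21 ± 0.24 on day 12 against day 3 (0.00106), −1.53 ± 0.24 on day 16 against day 3 (0.000232) and −1.03 ± 0.24 on day 16 against day 8 (0.00546). On day 16 against day 0 the change was −1.22 ± 0.24 (limma adjusted p = 0.00593), where 4.71% of all tested probes were called. Day 12 against day 0 and day 12 against day 3 called 17.9% each. Day 16 against day 3 called 13.8% and day 16 against day 8 called 15%. Without mare 2 the calls on day 16 against day 0 and against day 8 were lost (adjusted p = 0.115 and 0.0546), and that against day 0 also when only the 2 days entered the model (0.135). The 2 falls relative to day 0 shrank to −0.53 and −0.78 and lost their calls (adjusted p = 0.173 and 0.383) with the brightness of the array in the model, while those relative to days 3 and 8 kept theirs. With normexp on the local backgrounds as deposited, 1 of the 5 calls held and the change on day 16 against day 8 was −0.50; with marked local backgrounds replaced, 5 of 5 held. With mare and slide both in the model, 2 of 5 held.

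By the second SLC16A1 probe, the mares had levels of −1.17, −2.15, −0.66, −0.80 and −1.05 on day 0 and of 0.58, 0.02, −0.03, −0.38 and 0.51 on day 3. Every day 3 value lay above every day 0 value, unlike for the brighter probe. On day 8 this probe gave −0.66, −0.78, 0.11, 0.00 and 0.45, on day 12 −0.28, −1.47, −1.85, −2.06 and −1.09, and on day 16 −0.85, −1.97, −1.64, −3.24 and −2.27. The 2 probes of SLC16A1 correlated with r = 0.672 over the 25 arrays.

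The second SLC16A1 probe shared with the brighter one the falls of days 12 and 16 relative to day 3 and of day 16 relative to day 8, with changes of −1.49 ± 0.39 (SE, limma adjusted p = 0.00857), −2.13 ± 0.39 (0.000709) and −1.82 ± 0.39 (0.00225). It was higher on day 3 than on day 0 by 1.30 ± 0.39 (limma adjusted p = 0.0288), where the brighter probe gave 0.31 ± 0.24 (0.434). With this rise it was called in 4 pairs of days, a number that 14.6% of tested probes reached or passed. It gave −0.18 on day 12 against day 0 and −0.83 on day 16 against day 0 (limma adjusted p = 0.798 and 0.239), where the brighter probe was called lower. Its rise on day 3 was lost without mare 1, 2, 3 or 5, without the day 0 array of mare 1 or 2 and without the day 3 array of mare 1 or 5, with adjusted p-values between 0.0513 and 0.155. It was also lost with mare and slide both in the model (0.78, adjusted p = 0.435), with normexp on the local backgrounds as deposited (0.147), with slide (0.0612) or scan day (0.0667) as a block, and without the day 0 array of mare 2 and the day 3 array of mare 4 together (0.0673). With normexp after marked local backgrounds were replaced, the rise kept its call. The fall of this SLC16A1 probe on day 12 against day 3 was lost without mare 3 (adjusted p = 0.0607). On day 8 against day 0 it gave 0.99 with an adjusted p of 0.0711, which became 0.0446 with mare as a block.

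Whether the 2 SLC16A1 probes changed unequally was tested on their ratio within each array, a test added after the values had been seen. The largest change of the ratio of the second over the brighter probe was 1.19 ± 0.41 on day 8 against day 0 (SE, exact permutation test p = 0.0238, two-sided, n = 5 arrays per day), in 5 of 5 mares. After adjustment over the 20 such tests of probe pairs its p was 0.370, and 0 of the 10 pairs of days passed for SLC16A1, with 2 of 10 under an unadjusted p of 0.05. The SLC16A1 changes relative to days 3 and 8 thus rest on both probes, and those relative to day 0 on 1 probe each.

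The 3 genes were set against each other through the ratio of their signals within an array, which does not depend on the scaling between arrays; only its change between days has a meaning, and a change shows unequal movement of the 2 genes. Exact two-sided permutation tests were run for 3 gene pairs and 10 pairs of days, with Benjamini-Hochberg adjustment over the 30. The arrays of 2 days were split freely, and the smallest p that 5 arrays against 5 can then give is 0.00794. These tests, like those of the 2 SLC16A1 probes, took no account of the pairing of arrays by mare. HK2 over SLC2A5 changed in 7 of 10 pairs of days, SLC16A1 over SLC2A5 in 6 and HK2 over SLC16A1 in 7. Ratios of other genes were not tested, so these counts have no share to be set against and do not mark out the 3 genes. HK2, itself called in 7 of 10 pairs of days, enters both ratios that changed in 7.

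The ratio of HK2 over SLC2A5 was 3.03 ± 0.57 higher on day 3 than on day 0 on the log2 scale (SE, exact p = 0.00794, adjusted 0.0216, higher in 5 of 5 mares), as HK2 rose and SLC2A5 averaged lower. On day 16 against day 12 it changed by −2.30 ± 0.56 (exact p = 0.00794, adjusted 0.0216, lower in 5 of 5 mares). On day 8 against day 3, when both genes were called higher, the ratio changed by −0.50 ± 0.55 (exact p = 0.397, adjusted 0.458).

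The ratio of SLC16A1 over SLC2A5, by the brighter probes, changed by −1.99 ± 0.47 on day 8 against day 3 (SE, exact p = 0.00794, adjusted 0.0216, lower in 5 of 5 mares). It was higher on day 12 than on day 8 by 1.13 ± 0.34 (exact p = 0.0159, adjusted 0.0280, higher in 5 of 5 mares). The ratio of HK2 over SLC16A1 was 3.11 ± 0.35 higher on day 8 than on day 0 (exact p = 0.00794, adjusted 0.0216) and still 1.91 ± 0.46 higher on day 16 than on day 0 (exact p = 0.00794, adjusted 0.0216), in 5 of 5 mares both times. With the second SLC16A1 probe in its place, an alternative added after the values had been seen, the same changes of HK2 over SLC16A1 were 1.93 ± 0.22 and 1.51 ± 0.44 (exact p = 0.00794, adjusted 0.0170, each). The change of SLC16A1 over SLC2A5 was then −1.80 ± 0.42 on day 8 against day 3 (exact p = 0.00794, adjusted 0.0170). On day 12 against day 8 it was 0.66 ± 0.58, higher in 3 of 5 mares, and no longer passed (exact p = 0.325, adjusted 0.375). By the second probe 6 of the 7 changes of HK2 over SLC16A1 that had passed did so again, and 3 of the 6 of SLC16A1 over SLC2A5. With 4 mares the smallest exact p is 0.0286, and 0 of the 20 ratio changes that passed did so after adjustment when a mare was left out, while 0 of them turned direction.

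**Figure D3:**
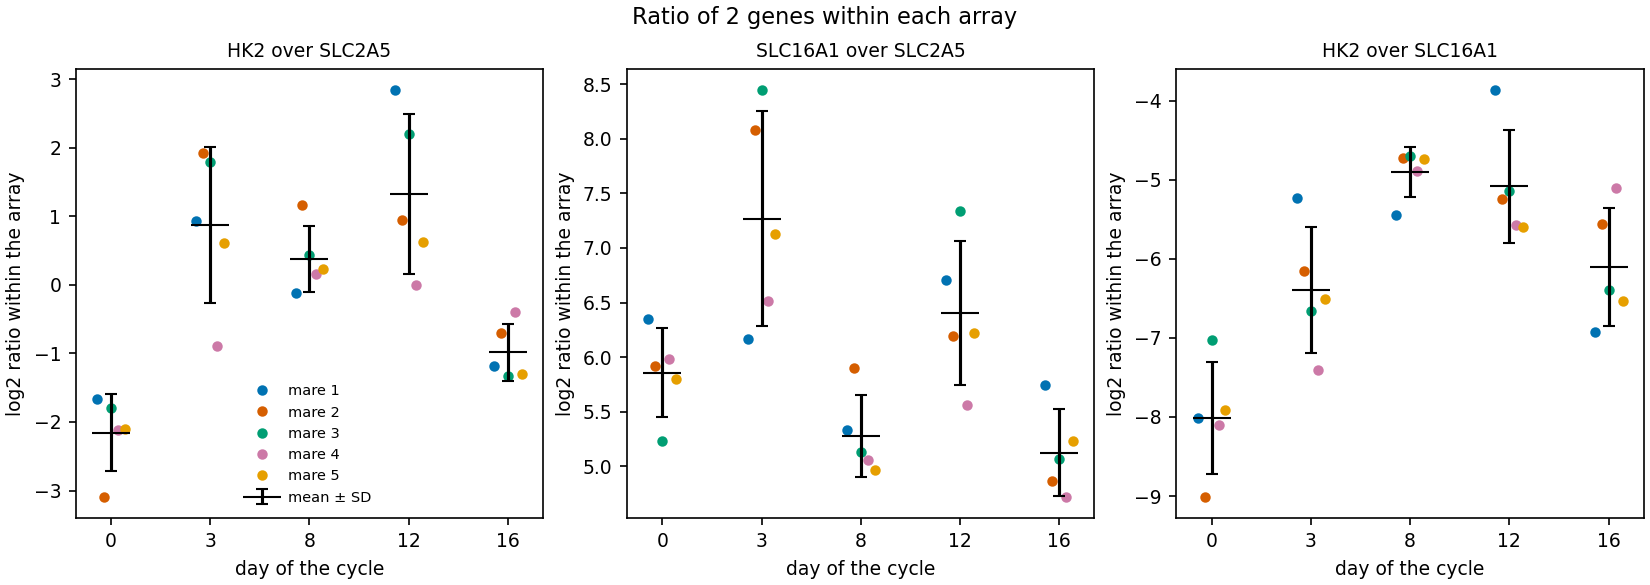
Log2 ratio of 2 genes within each array (HK2 over SLC2A5, SLC16A1 over SLC2A5, HK2 over SLC16A1; brighter probes) on days 0, 3, 8, 12 and 16; points are biopsies coloured by mare, black bars the mean ± SD of 5 mares. HK2 over SLC2A5 is lowest on day 0, with a mean of −2.16, and HK2 over SLC16A1 is lowest there too, with a mean of −8.01.

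Across the 25 arrays, the levels of HK2 correlated with those of SLC2A5 at r = −0.07 and with those of the brighter SLC16A1 probe at r = 0.06, and SLC2A5 with the brighter SLC16A1 probe at r = 0.26. These are descriptions over arrays that share mares and days. HK2 and the second SLC16A1 probe had r = 0.59.

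Other genes of the same pathways came from lists of 97 genes, chosen with earlier results of these data known. Of these, 18 had a probe that could be named and 16 were tested, so most of glycolysis, all listed hexose phosphorylation and fructose steps and the pentose phosphate pathway were not analysed here. Over the 5 days 5 of the 16 were called by the F test, against 35.8% of all tested probes: LDHA, LDHB, BSG, PYGL and PPARGC1A. The median log2 change of the 16 genes on day 3 against day 0 was −0.17, beside −0.11 over all tested probes, with 1 gene called higher and 1 lower, where 12.7% of all tested probes were called. On day 8 against day 3, 0 of 16 were called higher and 2 lower, where 13.8% of all tested probes were called, with a median of 0.16 beside 0.08. On day 12 against day 8, day 16 against day 12 and day 16 against day 0, limma called 0 of 16 each, where it called 1.1%, 8.07% and 4.71% of all tested probes. Unadjusted p-values were under 0.05 for 2, 4 and 2 of the 16 genes in these pairs.

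Of the 4 tested genes of lactate and pyruvate handling, 3 were called over the days (BSG, LDHA and LDHB). The F test over the days called 35.8% of all tested probes and 5 of the 16 tested genes of all lists. BSG, the chaperone that MCT1 needs at the membrane, averaged 1.45 ± 0.30 on day 3, against 0.64 ± 0.14 on day 0 (SD, n = 5 each). It was higher by 0.81 ± 0.18 (SE, limma adjusted p = 0.00495) in 5 of 5 mares, with no overlap. BSG changed by −0.90 ± 0.18 on day 16 against day 3 (limma adjusted p = 0.00149). The rise lost its call without mare 1 and with the brightness of the array in the model (0.65, limma adjusted p = 0.0677). The call was also lost with normexp on the deposited local backgrounds, and with mare and slide both in the model (0.112). With normexp after marked local backgrounds were replaced, the call held.

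LDHA, the subunit of lactate dehydrogenase that favours making lactate, averaged −0.60 ± 0.31 on day 8, against 0.43 ± 0.46 on day 3 (SD, n = 5 each). Its change was −1.03 ± 0.27 (SE, limma adjusted p = 0.0104), lower in 5 of 5 mares, while HK2 was called higher in the same comparison. The LDHA call was lost without mare 1 (limma adjusted p = 0.0721), with normexp on the deposited local backgrounds (0.0853), and with mare and slide both in the model (0.0702). After marked local backgrounds were replaced, the call held. LDHA was also called lower on day 12 than on day 3, kept in 44 of 46 alternative settings. On day 16 it was called higher than on day 8, kept in 34 of 46. LDHB, the subunit that favours turning lactate into pyruvate and which is named after its values were seen, averaged 3.79 ± 0.29 on day 8, against 3.13 ± 0.24 on day 0 (SD, n = 5 each). The change of LDHB was 0.66 ± 0.21 (SE, limma adjusted p = 0.0279), and 32 of 46 alternative settings kept the call. It was lost without mare 2, 3 or 4, and also without the day 0 arrays of mares 2 or 5 or the day 8 arrays of mares 1, 2 or 3. Slide (limma adjusted p = 0.0746) or scan day (0.172) as a block also ended the call. The same held with the brightness of the array (0.0735) or with mare and slide both in the model (0.299). With normexp on the deposited local backgrounds, which reach 772899 on the day 8 array of mare 2, the change of LDHB was 0.13. After marked local backgrounds were replaced, its call held. LDHB averaged 3.01 ± 0.39 on day 16 (SD, n = 5). It was called lower on day 16 than on day 8, a call that 41 of 46 alternative settings kept. SLC16A3, which encodes MCT4, a lactate exporter of glycolytic cells, was not called over the 5 days (limma F test adjusted p = 0.315) and is named here although it passed in no pair of days.

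**Figure D4:**
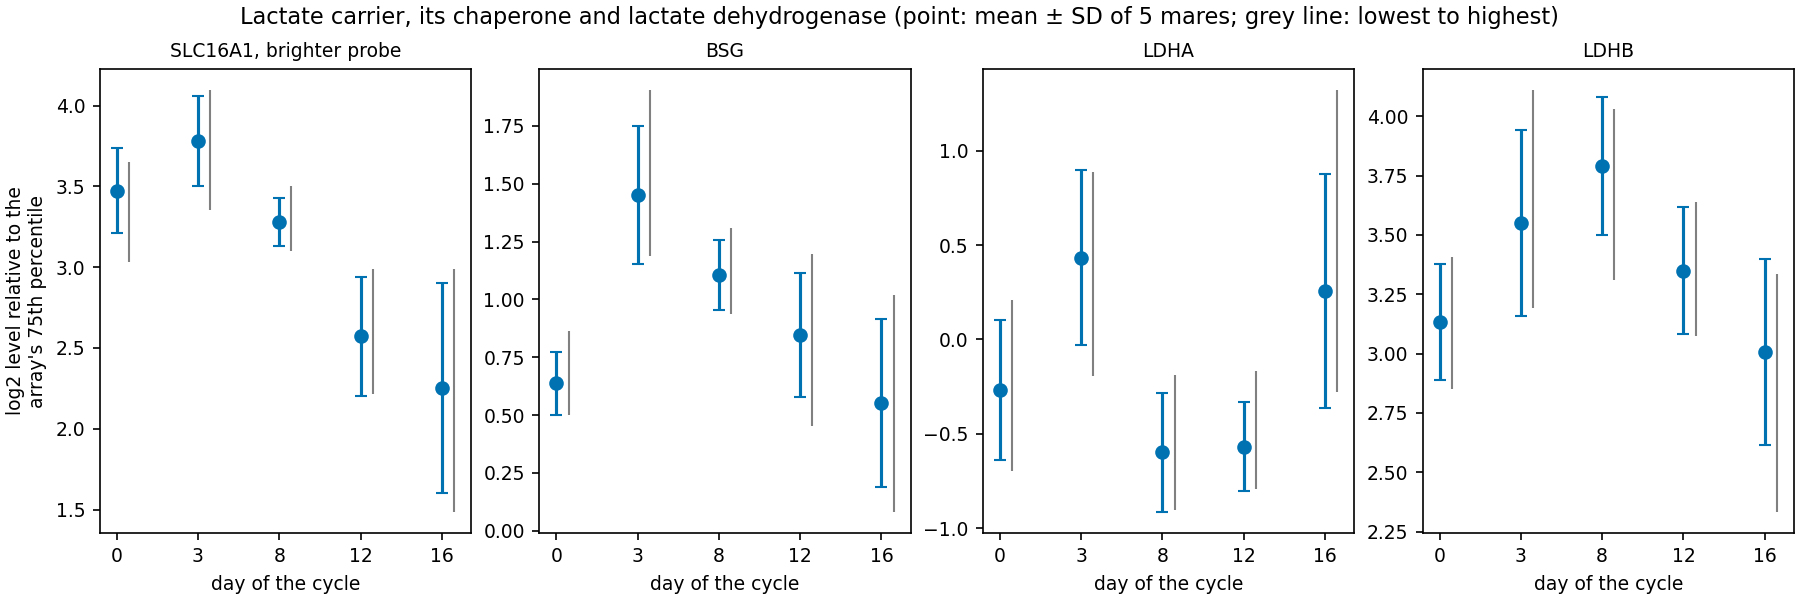
Mean level ± SD of 5 mares (log2 signal relative to the 75th percentile of the array, vertical axes differ) of SLC16A1 by its brighter probe, BSG, LDHA and LDHB on days 0, 3, 8, 12 and 16; grey lines run from the lowest to the highest mare. BSG is highest on day 3 with a mean of 1.45, LDHA is lowest on day 8 with −0.60, and LDHB is highest on day 8 with 3.79.

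Over the days, the F test called 35.8% of all tested probes and 1 of 5 tested genes of glycogen and glucose release. That gene was PYGL, the glycogen phosphorylase known from liver, which releases glucose units from glycogen. It averaged 1.10 ± 0.26 on day 8, against 1.86 ± 0.14 on day 3 (SD, n = 5 each), a change of −0.76 ± 0.17 (SE, limma adjusted p = 0.00290) that kept its call in 46 of 46 alternative settings. PPARGC1A, a transcriptional coactivator of oxidative metabolism, averaged −2.96 ± 0.68 on day 3, against −1.26 ± 0.50 on day 0 (SD, n = 5 each), a change of −1.71 ± 0.40 (SE, limma adjusted p = 0.00744) in the direction opposite to HK2. This PPARGC1A call was lost without mare 1 or 2 (limma adjusted p = 0.0530 and 0.0624). The call was also lost with normexp on the deposited local backgrounds and with mare and slide both in the model. With normexp after marked local backgrounds were replaced, the call held. PPARGC1A averaged highest on day 16, at −0.46 ± 0.90 (SD, n = 5). It was called higher on day 16 than on day 3 in 46 of 46 alternative settings, by 2.11 to 2.79. On day 16 against day 8 the call held in 45 of 46. SLC5A1, the sodium-coupled glucose carrier SGLT1, is named after its values were seen. It was higher on day 16 than on day 3 by 1.39 ± 0.43 (SE, limma adjusted p = 0.0315). The call was kept in 33 of 46 settings and lost, among others, without mare 2, 3 or 5, without the day 3 array of mare 1, 2, 3 or 4 and without the day 16 array of mare 2, 3 or 5. SLC2A4, the insulin-responsive glucose carrier GLUT4, is named on the same ground as SLC16A3 and was not called over the days (limma F test adjusted p = 0.204).

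The genes whose levels ran most like those of each gene were found among 501 named and tested genes by Pearson correlation over the 25 arrays, as a description. HK2 ran most like LGB1 (r = 0.83), FAM133B (0.80), FST (0.78) and HSD3B2 (0.77), and least like ANGPTL2 (−0.84). LGB1 was very dim at the ends of its course, with means of −8.56 on day 0 and −8.27 on day 16, so its r rests partly on dim values. FST encodes follistatin, which binds activin; its mean levels were 0.63, 2.17, 3.25, 2.78 and 0.09 on days 0, 3, 8, 12 and 16, an arch with its top on day 8 as for HK2. Once the day means were taken out, the correlation of HK2 with FST was −0.66, with FAM133B −0.09, with LGB1 −0.03 and with HSD3B2 0.34.

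SLC16A1 by its brighter probe ran most like HSP90AB1 (r = 0.84), XPO1 (0.81), NLGN3 (0.80) and RNF208 (0.78), and least like GM2A (−0.84). HSP90AB1, a cytosolic heat shock protein, kept r = 0.64 with SLC16A1 after the day means were taken out, and XPO1, a nuclear export receptor, 0.54. For SLC2A5 the highest were COL5A2 (0.66), TIAM1 (0.53), IL18 (0.51) and HPGD (0.50), and the lowest was ANG (−0.63). The best match of SLC2A5 was thus weaker than those of HK2 and SLC16A1. Once the day means were taken out, the correlation of SLC2A5 with COL5A2 was 0.31, with TIAM1 0.40, with IL18 0.21, with HPGD 0.20 and with ANG −0.53. COL5A2, a fibrillar collagen chain, averaged −4.37, −5.10, −4.40, −5.06 and −4.46 on days 0, 3, 8, 12 and 16, low on the same 2 days as SLC2A5.

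Several properties of the arrays and biopsies moved with the days, and their part in the results was not tested beyond the values given. The 75th percentile of signal ran from 698 to 3701 over the arrays, and in 5 of 5 mares it was lower on day 0 than on days 3, 8 and 12. With that percentile as a covariate, 7 of 7 HK2 calls, 3 of 3 SLC2A5 calls and 3 of 5 calls of the brighter SLC16A1 probe held. There were 7 slides, each with 3 or 4 of the arrays. Most slides held arrays of a single mare, so their differences between days repeat those within mares and are not a separate check. Within slides that held both days, 21 of the 22 called changes of the 5 probes had the pooled direction in every slide, and within scan days 22 of 22 did. The exception was HK2 on day 8 against day 3, which was higher in 3 of 4 slides (−0.25 to 1.46). HK2 was higher on day 3 than on day 0 in 3 of 3 slides (1.03 to 2.01) and lower on day 16 than on day 8 in 4 of 4 (−3.13 to −1.81). SLC2A5 was higher on day 8 than on day 3 in 4 of 4 slides (0.79 to 2.40) and lower on day 12 than on day 8 in 3 of 3 (−3.19 to −0.57). The brighter SLC16A1 probe was lower on day 16 than on day 3 in 4 of 4 slides (−2.45 to −0.36).

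Among cell type markers, 1 of 9 for epithelium could be named, ESRP1, a splicing factor of epithelial cells. It was above background on every day, with a scaled signal of 5.85 to 12.6 times the 75th percentile. ESRP1 was called in no pair of days. The stromal fibroblast genes DCN and LUM, 2 of 7 listed, were lower on days 3, 8 and 12 than on day 0, when HK2 was higher. Their summed scaled signal ran from 8.63 to 25.1 on day 3, from 11.8 to 16.1 on day 8 and from 12.6 to 20.04 on day 12, against 29.8 to 44.7 on day 0. The smooth muscle gene TAGLN, 1 of 5 listed, ran from 0.457 to 1.19 on day 16, when HK2 and SLC16A1 were lower, against 0.132 to 0.373 on day 8. The summed signal of 3 of 7 T and NK cell genes ran from 0.588 to 0.939 on day 8, when HK2 and SLC2A5 were highest, against 1.17 to 3.26 on day 0. Of these genes, on day 8 against day 0, CCL5 changed by −1.03 and GNLY by −1.72 (limma adjusted p = 0.00283 and 6.66e-05), and CD2 gave −0.11 (0.814). The summed signal of 2 of 8 macrophage and neutrophil genes ran from 1.51 to 5.12 on day 16, when HK2 and SLC16A1 were lower, against 0.901 to 1.24 on day 8. CD14 among them was higher on day 16 against day 8 by 1.18 (limma adjusted p = 0.00468) and against day 3 by 0.83 (0.0452). CD68, the other gene, gave −0.10 (limma adjusted p = 0.872) and −0.006 (0.996) in these comparisons and was not called. Every named marker of these 5 cell types was above background somewhere on every day, and the part of any of them in the 3 genes' changes was not tested. Markers of endothelium, ciliated cells and erythrocytes were listed too, and their part was not tested either. PECAM1 of endothelium was higher on day 12 than on day 3 by 0.54 (limma adjusted p = 0.0461). DYDC1 of ciliated cells and HBA2 of erythrocytes were called in no pair of days. SLC4A1 of erythrocytes was too dim to be tested.

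**Figure D5:**
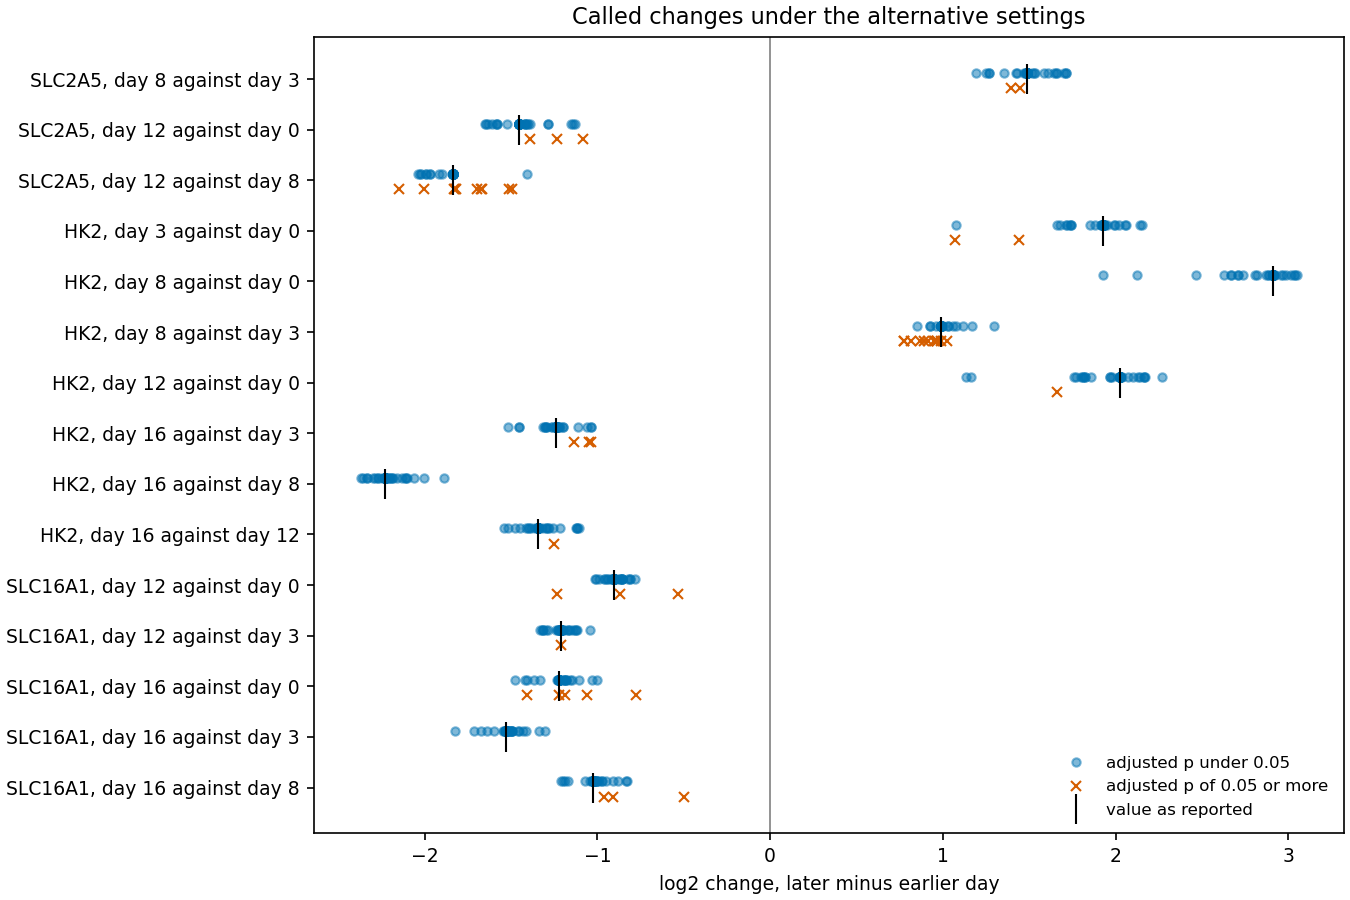
Log2 change (later minus earlier day) of the 15 called changes of the HK2 probe and the brighter SLC2A5 and SLC16A1 probes, as reported (black line) and under the 46 alternative settings; blue points have an adjusted p under 0.05 and orange crosses do not. No point crosses 0, and the crosses are most frequent for SLC2A5 on day 12 against day 8 and HK2 on day 8 against day 3.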

How the data were processed

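Total RNA of 25 endometrial biopsies was labelled with Cy3 and measured on single-colour arrays, and the authors read the scans with Agilent Feature Extraction 10.7.3.1, per the submitters' processing notes. The deposited scanner files hold 1 intensity per spot, background-subtracted by that software per the file headers, for 43803 spots of 43603 probes; the deposited value table equals this processed signal on 25 of 25 arrays. Spots of a probe were averaged, log2 intensity minus the 75th percentile of the array was taken, and a probe was tested if 4 or more of the 5 arrays of any single day showed it well above background (35770 probes). The precision is limited by the number of arrays; 70.3% to 88.1% of spots were well above background on an array. Probes were named through RefSeq transcripts; 1307 probes of 620 genes had a symbol. limma 3.58.1 in R 4.3.3 fitted 1 mean per day over all arrays, without mare, and its code was tested on simulated data.

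The replicate number is the mare in the labels, so numbers pair the samples: after subtraction of each day's mean, arrays of the same mare correlated with a median of 0.245 (50 pairs), or 0.12 where they lay on different slides (26 pairs), and arrays of different mares with −0.0462. The fit with mare as a block is an alternative, beside other background corrections, scalings, filters, slide, scan day, array signal and leaving out arrays or mares; 2 arrays (day 0 of mare 2, day 3 of mare 4) that an earlier analysis of these data found to stand apart were also left out. The genes, lists and tests were chosen with earlier results of these data known. Named besides the 3 genes are pathway genes called in a successive pair of days or on day 16 against day 0 and, for each of the 3 genes, the 4 most and 1 least correlated named genes; exceptions, SLC16A3 and SLC2A4 among them, are marked.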

Additional observations from a re-analysis of the deposited data

Results flagged for a closer look

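Of 25 groups of 5 biopsies (5 probes on 5 days), 1 held a value far from the others: mare 1 on day 0 had a level of −2.985 by the second SLC2A5 probe, while the other 4 mares lay between −2.35 and −2.18. Its gap to the nearest mare was 0.781 of the range of the group, above Dixon's critical value of 0.710. The brighter SLC2A5 probe gave −2.91 in the same biopsy. Chance marks about 1 in 20 such groups.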

How the results depend on the processing

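Of the 27 called results of the 5 probes (22 pairs of days and 5 tests over the days), 395 of 427 values under 16 alternatives kept their call and 0 changed direction; of 28 results not called, 9 of 448 values passed and 4 changed direction. Leaving out an array or a mare kept 766 of 810 calls. With mare as the replicate block all 27 calls held and 1 was added, that of the second SLC16A1 probe on day 8 against day 0 (0.99, adjusted p = 0.0446). No call changed without a filter on dim probes, with slide as a random block, with an intensity trend, with the deposited value table or with marked spots kept. The cause of the changes below was not tested.

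Mare and slide together as blocks left some log2 changes without a call. For HK2 these were 1.44 on day 3 against 0, 1.03 on day 8 against 3, 1.66 on day 12 against 0, −1.03 on day 16 against 3 and −1.25 on day 16 against 12. The same held for SLC2A5: 1.45 on day 8 against 3, −1.39 on day 12 against 0, −2.0035 on day 12 against 8 and, over the days, a range of 2.0035 (adjusted p = 0.0545). For SLC16A1 it held for −1.24 on day 12 against 0, −1.41 on day 16 against 0 and −0.96 on day 16 against 8, and by the second probe for 0.78 on day 3 against 0, a call lost under 5 of 16 alternatives. Normexp on the deposited local backgrounds, which reach 772899 on the day 8 array of mare 2 and at most 251 on the others, left HK2 at 1.07 on day 3 against 0 and −1.05 on day 16 against 3 without a call. It left SLC16A1 at −0.87 and −1.21 on day 12 against 0 and 3 and −1.19 and −0.50 on day 16 against 0 and 8, without a call, and called SLC2A5 on day 16 against 8 (−1.23). SLC2A5 on day 3 against 0 was called with marked local backgrounds replaced (−0.93) and with the stricter filter (−1.10), and SLC2A5 on day 12 against 0 was lost with scan day as a block (−1.23). With 2 days in the fit, SLC16A1 on day 12 against 8 was called (−0.71) and on day 16 against 0 lost (−1.22). HK2 on day 8 against 3 was lost with slide as a block (0.92) and without the 2 arrays that stand apart (0.77), and SLC16A1 on days 12 and 16 against 0 with the array signal as covariate (−0.53 and −0.78).

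Changes not called that turned direction were HK2 on day 12 against 3 with quantile scaling (−0.0073) and without the 2 arrays (−0.11), and, with the array signal as covariate, SLC16A1 on day 8 against 0 by the brighter probe (0.0507) and on day 12 against 0 by the second probe (0.0813). Over the leave-outs, HK2 ranged from 0.77 to 1.30 on day 8 against 3, from −0.12 to 0.28 on day 12 against 3 and from −1.52 to −1.04 on day 16 against 3. SLC2A5 ranged from −1.40 to −0.84 on day 3 against 0, from 1.25 to 1.71 on day 8 against 3, from −1.65 to −1.08 on day 12 against 0 and from −2.15 to −1.49 on day 12 against 8. SLC16A1 ranged by the brighter probe from −1.48 to −1.0021 on day 16 against 0 and from −1.21 to −0.84 on day 16 against 8, and by the second probe from −0.45 to 0.0844 on day 12 against 0. Without a mare, the ratio SLC16A1 over SLC2A5 on day 16 against 8 ranged from −0.293 to 0.0688 and HK2 over SLC16A1 on day 16 against 3 from −0.214 to 0.785. With the second SLC16A1 probe, 2 ratio changes that had not passed turned direction: SLC16A1 over SLC2A5 on day 8 against 0 (0.606, against −0.579 with the brighter probe) and HK2 over SLC16A1 on day 12 against 8 (0.287, against −0.181). The scaling moved the median of all probes on day 3 against 0 (−0.11 with the 75th percentile, 0.00 with quantile scaling) and 49 of 50 changes kept their direction.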
